A study of Mus musculus with 6 samples.

Results

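The 45 cell cycle and proliferation genes described here were taken by symbol from a gene-level RNA-seq count table of mouse aorta that holds 55453 genes. They comprised 20 genes of G1 and S phase (9 G1 and G1/S regulators and 11 genes of DNA replication), 23 genes of G2 and mitosis, and 2 inhibitors of cyclin-dependent kinases (CDKs). All 45 had a row in the table and all 45 passed the filter on low counts. The homozygous mice carried 2 floxed Srf alleles and the Itga8-CreERT2 driver, and the heterozygous controls carried 1 floxed Srf allele and the same driver, a Cre recombinase that tamoxifen switches on, under control of Itga8, which encodes an integrin of smooth muscle. Both genotypes therefore carried the driver, both received 5 daily tamoxifen doses of 33 mg/kg, and the aortae were collected 10 days after the last dose. Per the labels, each aorta was stripped of adventitia and endothelium and frozen on its own. The table holds 2 homozygous libraries (replicates 2 and 3) and 3 heterozygous libraries (replicates 1, 2 and 3). Homozygous replicate 1 has no column in the table and was not analysed here. The submitters state that they left 1 homozygous aorta out for standing apart from the others or for a sampling error, without naming it. The controls had also lost 1 Srf copy wherever Cre had acted, so the comparison is of 2 copies lost against 1, and it holds no mouse with intact Srf. Neither age nor sex is stated.

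Cells enter the cycle when D-type cyclins with CDK4 and CDK6, and then E-type cyclins with CDK2, phosphorylate the retinoblastoma protein and release E2F factors, which switch on the genes of DNA replication. Genes of G2 and mitosis are switched on later through a promoter element called CHR together with CCAAT boxes, and are held silent in resting cells by the DREAM complex. Medial smooth muscle cells of the healthy adult aorta are largely quiescent, and their re-entry into the cycle is a known feature of vessel injury.

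Promoter stretches of 5 members are shown because these genes carried the lowest p-values of their groups: Mki67, Top2a, Birc5 and Cenpa among the genes of G2 and mitosis, and Mcm6 among the genes of DNA replication. Each stretch has 150 bases, 120 before a RefSeq transcript start and 30 from it, 5′ to 3′ on the gene's strand, from RefSeq on GRCm38.p6. The positions are chr7:135716350-135716499 (minus strand) for Mki67, chr11:99024160-99024309 (minus) for Top2a, chr11:117849117-117849266 (plus) for Birc5, chr5:30666766-30666915 (plus) for Cenpa and chr1:128359676-128359825 (minus) for Mcm6. Capitals mark matches of any of 3 motifs, each searched on both strands: the CHR element, written TTTGAA, the CCAAT box, and the E2F site. The E2F site was taken as TTCCCGC or the variant TTCGCGC, and also as the form TTGCCGC or the related form TTGGCGC, and adjoining E2F matches overlap.
Mki67: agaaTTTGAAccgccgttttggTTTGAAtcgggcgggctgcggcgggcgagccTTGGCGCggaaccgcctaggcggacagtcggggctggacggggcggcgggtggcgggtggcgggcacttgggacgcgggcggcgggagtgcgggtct
Top2a: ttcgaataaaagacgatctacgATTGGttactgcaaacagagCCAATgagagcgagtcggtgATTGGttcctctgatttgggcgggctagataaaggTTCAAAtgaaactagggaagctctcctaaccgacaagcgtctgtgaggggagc
Birc5: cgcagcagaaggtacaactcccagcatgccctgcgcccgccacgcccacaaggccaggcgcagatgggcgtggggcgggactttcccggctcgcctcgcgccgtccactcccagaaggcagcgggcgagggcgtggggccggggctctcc
Cenpa: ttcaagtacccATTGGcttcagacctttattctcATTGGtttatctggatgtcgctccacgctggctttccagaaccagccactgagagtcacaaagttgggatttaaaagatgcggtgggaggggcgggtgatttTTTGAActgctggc
Mcm6: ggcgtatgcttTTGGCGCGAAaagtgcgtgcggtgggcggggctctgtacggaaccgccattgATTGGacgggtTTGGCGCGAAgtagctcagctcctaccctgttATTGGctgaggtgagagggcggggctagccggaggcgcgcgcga
Mki67 held 2 CHR elements and an E2F match in this stretch, Top2a and Cenpa held 1 each beside CCAAT boxes, Birc5 held none of the 3 motifs, and Mcm6 held paired, overlapping E2F matches and 2 CCAAT boxes. Over the full RefSeq windows of 300 bases (250 before the start, 50 after), 36 of the 45 members had an entry. A CHR element occurred in 14 of the 18 G2 and mitosis genes with a window (77.8%) and in 1 of 16 G1/S genes (6.25%), against 20.2% of all 27025 genes with a window. An E2F match occurred in 6 of 10 replication genes (60%) and in 3 of 18 G2 and mitosis genes (16.7%), against 10.9% of all genes. CCAAT boxes occurred in 17 of the 18 G2 and mitosis genes and in 8 of the 10 replication genes, against 41.1% of all genes. The CArG box, the sequence that serum response factor binds, matched in 1 of the 36 members (Tyms; 2.78%), against 1.81% of all genes. A match is a description of the letters in these windows only.

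Library totals ranged from 26177821 to 34311855 counts. Levels are CPM, counts scaled by TMM to a common library size, and a positive log2 fold change, given with its standard error (SE), means a higher level in homozygous aortae. Srf itself stood at 44.97 and 38.6 CPM in the homozygous libraries and at 56.1, 64.4 and 68.3 CPM in the heterozygous ones, so that the groups did not overlap (log2 fold change -0.59, SE 0.122; edgeR adjusted p = 0.115, DESeq2 adjusted p = 0.00373). Heterozygous replicate 3 stood apart in skeletal muscle RNA, with a summed 10.4 CPM over 12 markers against 309 to 2609 CPM in the other libraries. Homozygous replicate 3 had the lowest summed endothelial markers, 472 CPM against 818 to 1214 CPM elsewhere. The smooth muscle markers were abundant in every library at a summed 16619 and 16113 CPM in homozygous and 28350, 28946 and 27219 CPM in heterozygous libraries. Because these are bulk samples, fewer cells of a type and less RNA per cell cannot be told apart in any value below.

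The members were mostly scarce in these aortae. Scaled to exon length, Ccnd2, the cyclin D2 gene, was the most abundant member, at 30.9 CPM per kilobase of exon in homozygous and 35.5 in heterozygous libraries (means). Cdkn1b, Cdk4, Mcm6 and Ccnd3 followed. Exon length is that of all annotated exons of a gene merged together. Levels per kilobase, and the ranks, shares and multiples taken from them here and below, therefore depend on the annotation. Mki67 reached 1.31 CPM per kilobase in homozygous and 0.861 in heterozygous libraries, and Bub1, a kinase of the spindle checkpoint, was the lowest of the 45 at 0.118 and 0.0981. Of the 23 genes of G2 and mitosis, 5 stayed under 1 CPM in every library. In 2 members at least 1 library had fewer than 10 counts.

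No member passed the test across all genes. edgeR's quasi-likelihood test called 0 of the 45 higher and 0 lower at a Benjamini-Hochberg adjusted p under 0.05, against 0% of the 18192 genes tested in either direction. At an unadjusted p under 0.05 it gave 7 members higher and 1 lower, where 9.04% of all genes were higher and 6.75% lower. DESeq2 called 1 of the 40 members it gave an adjusted p higher (Mki67) and 1 lower (Mcm6), against 3.33% and 2.61% of all genes, and limma-voom called 0 higher and 0 lower, against 0% and 0.0055%. The median log2 fold change was 0.20 over the 45 members and -0.02 over all genes tested. Of the 45 members 31 had a positive log2 fold change, beside 47.2% of all genes tested. In 13 members both homozygous libraries stood above all 3 heterozygous ones and in 2 both stood below, where 17.4% and 18.2% of all genes did so. The heat map of levels shows these genes by group: 9 of the 13 were genes of G2 and mitosis, which make up 23 of the 45 members.

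**Figure D1:**
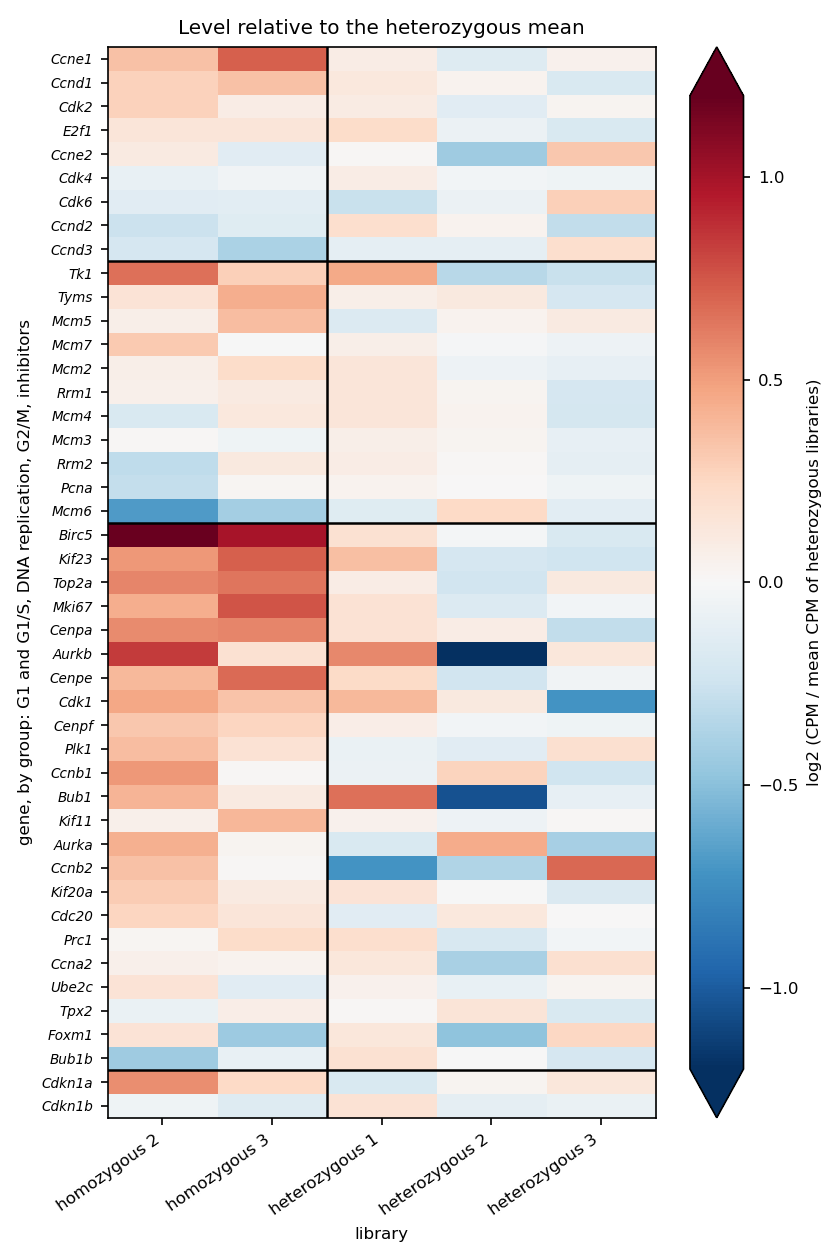
Level of each of the 45 members in each library (columns: 2 homozygous, then 3 heterozygous) as log2 of its CPM over the mean CPM of the heterozygous libraries; rows are grouped as G1 and G1/S regulators, DNA replication, G2/M and inhibitors, sorted by log2 fold change, and colours saturate at the ends of the bar. Both homozygous columns are red for Birc5, Top2a, Mki67 and Cenpa and blue for Mcm6.

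Genes of G2 and mitosis had a median log2 fold change of 0.26, with 20 of 23 positive and 3 negative (Bub1b, Foxm1 and Tpx2). Among all genes tested 47.2% were positive. In 9 of the 23 the homozygous libraries lay above the heterozygous ones without overlap, and in 0 of the 23 they lay below, beside the 17.4% and 18.2% of all genes. Under the other scalings 21 were positive, with Tpx2 turning. Summed over the 23 genes, the level was 58.8 and 61.8 CPM in the homozygous libraries and 51.5, 43.4 and 46.3 CPM in the heterozygous libraries. Mki67 and Top2a made up 33.0% and 36.5% of that sum in homozygous and 29.6%, 27.9% and 30.3% in heterozygous libraries. Without those 2 genes the sums were 39.4 and 39.3 CPM in homozygous and 36.3, 31.3 and 32.3 CPM in heterozygous libraries, also without overlap. These sums still hold Birc5, Cenpa, Cenpe, Cenpf, Kif11, Kif23 and Cdc20, each without overlap on its own. They therefore cannot show a shift of the whole group, and in 14 of the 23 genes the libraries overlapped. At an unadjusted p under 0.05 edgeR gave 5 of the 23 higher and 0 lower, beside 9.04% and 6.75% of all genes. With either homozygous library left out fewer of the 23 reached that threshold. The share of all genes in those fits is not given here.

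Mki67 encodes Ki-67, a chromosome-coating protein present in cycling and absent from resting cells, and it was the most abundant gene of this group in CPM. It stood at 11.7 and 14.6 CPM in the homozygous libraries, against 9.78, 7.74 and 8.47 CPM in the heterozygous libraries. Both homozygous values lay above all heterozygous ones (log2 fold change 0.60, SE 0.158; edgeR adjusted p = 0.155). With DESeq2 its adjusted p was 0.0410, and over all alternatives the adjusted p ran from 0.0219 to 0.634. Its log2 fold change stayed positive throughout, from 0.43 without homozygous replicate 3 to 0.75 without homozygous replicate 2.

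Top2a encodes the DNA topoisomerase that untangles chromosomes before they separate. It was at 7.67 and 7.99 CPM in homozygous and at 5.44, 4.36 and 5.57 CPM in heterozygous libraries. The groups did not overlap, and the log2 fold change was 0.61 (SE 0.166), with an edgeR adjusted p of 0.163. DESeq2 gave 0.0547.

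Birc5, the gene of survivin, a subunit of the chromosomal passenger complex, had the largest log2 fold change of the 45 members, 1.08 (SE 0.284; edgeR adjusted p = 0.156, DESeq2 adjusted p = 0.210). That value rests on few reads: 35 and 35 counts in the homozygous libraries and 20, 18 and 12 in the heterozygous libraries. In CPM these were 1.24 and 1.08 against 0.615, 0.534 and 0.477. Its partner in the same complex, Aurkb, the kinase Aurora B, had 22 and 16 counts in homozygous and 21, 6 and 12 in heterozygous libraries, and its groups overlapped.

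Cenpa encodes the histone H3 variant that marks centromeres. It was at 3.68 and 3.75 CPM in homozygous and at 2.80, 2.64 and 2.03 CPM in heterozygous libraries, a log2 fold change of 0.57 (SE 0.210; edgeR adjusted p = 0.260). Cenpe, a kinetochore motor, was at 2.37 and 2.89 CPM against 2.12, 1.54 and 1.75 CPM in heterozygous libraries (log2 fold change 0.54, SE 0.238). Cenpf, a kinetochore and matrix protein, was at 3.68 and 3.50 CPM against 3.11, 2.88 and 2.82 CPM in heterozygous libraries (0.29, SE 0.177). Kif23, the motor of the central spindle, was at 2.69 and 3.07 CPM in homozygous and at 2.40, 1.63 and 1.59 CPM in heterozygous libraries (0.62, SE 0.256). None of these 4 groups of values overlapped, and none passed adjustment over all genes. Kif11 and Cdc20 completed the 9 genes without overlap.

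**Figure D2:**
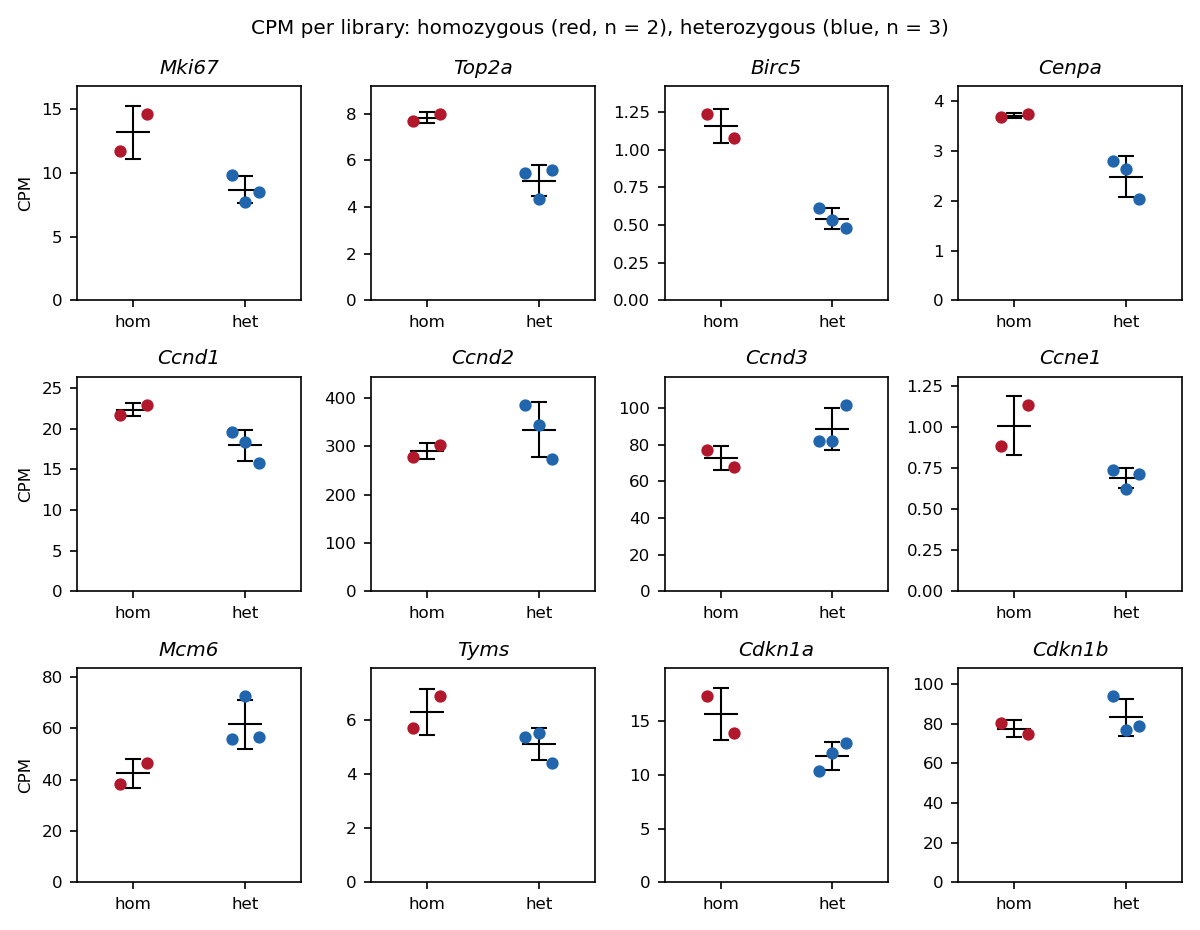
CPM of 12 members in each library (points), with the mean and SD of the 2 homozygous (hom, red) and 3 heterozygous (het, blue) libraries; each panel has its own axis from 0. The homozygous points lie above all heterozygous ones for Mki67, Top2a, Birc5, Cenpa, Ccnd1, Ccne1, Tyms and Cdkn1a, and below for Ccnd3 and Mcm6.

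For the engine of mitotic entry itself, cyclin B with CDK1, the libraries of the genotypes overlapped. The log2 fold changes were still positive, at 0.38 (SE 0.355) for Cdk1, 0.27 (SE 0.346) for Ccnb1 and 0.22 (SE 0.446) for Ccnb2. That of Foxm1 was -0.10 (SE 0.311). Cdk1 was at 1.17 and 1.08 CPM in homozygous and at 1.11, 0.919 and 0.517 CPM in heterozygous libraries. Ccnb1, a cyclin that activates it, was at 0.742 and 0.522 CPM against 0.492, 0.623 and 0.438 CPM in heterozygous libraries, and 14.9% of its 100-base words also occur in transcripts of other genes, mostly its pseudogene Ccnb1-ps. Ccnb2 was at 1.17 and 0.921 CPM against 0.554, 0.712 and 1.47 CPM in heterozygous libraries. Foxm1, the transcription factor that drives the G2 programme, was at 2.51 and 1.66 CPM in homozygous and at 2.46, 1.601 and 2.67 CPM in heterozygous libraries. In these 4 genes the libraries of the groups overlapped, and with 11 to 37 counts per library for Cdk1, Ccnb1 and Ccnb2 a difference of the size seen in Mki67 may not be detectable at this depth. The remaining G2 and mitosis genes (Ccna2, Bub1, Bub1b, Aurka, Plk1, Kif20a, Tpx2, Prc1 and Ube2c) overlapped as well. Several of these values are uncertain because 100-base words of the gene also occur in transcripts of other genes: 21.4% in Kif20a (mostly Cdc23), 10.2% in Ccna2 (mostly Exosc9), 6.77% in Prc1 and 6.16% in Ube2c, which lies over the skeletal muscle gene Tnnc2 on the other strand.

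**Figure D3:**
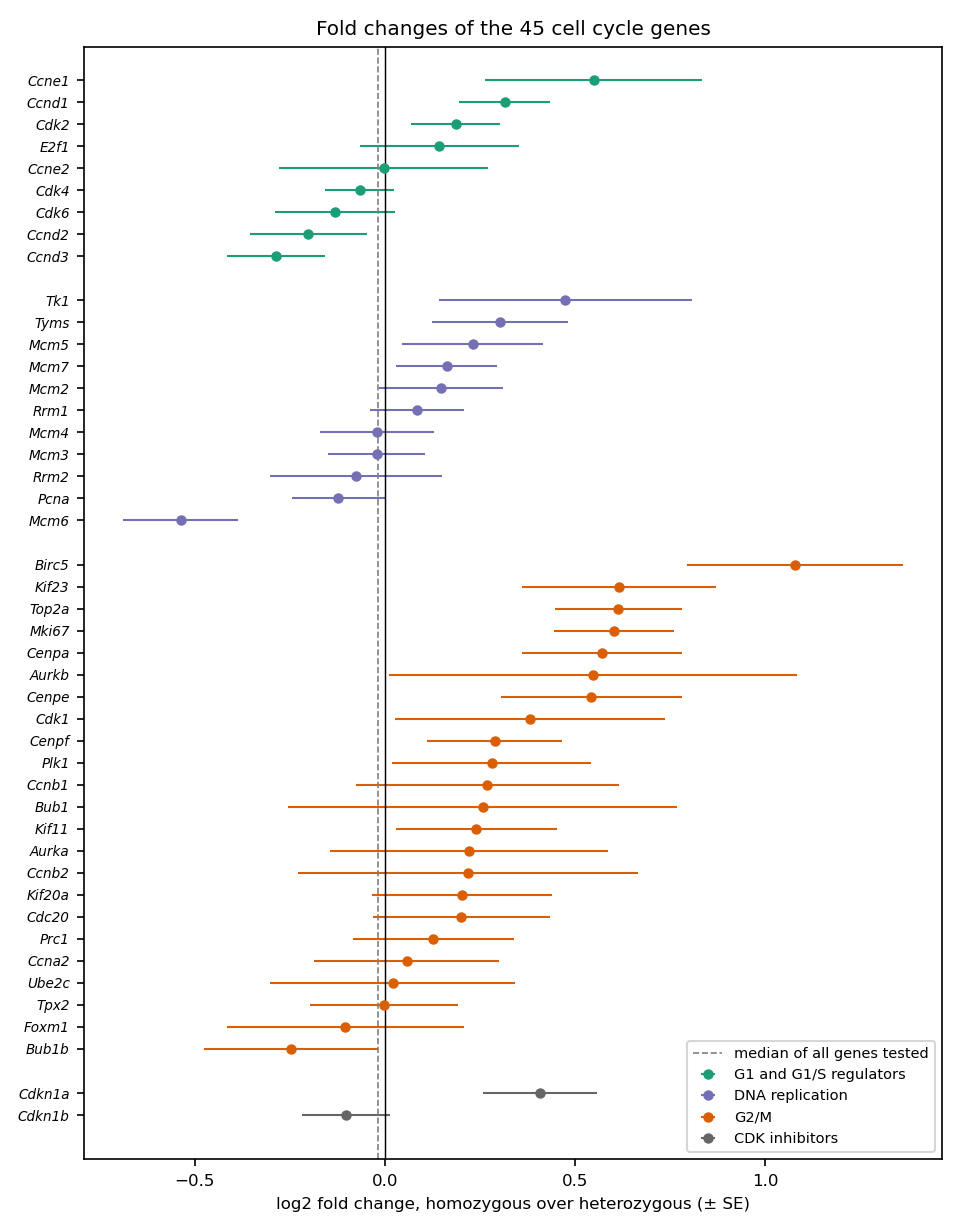
Log2 fold change (homozygous over heterozygous) with its SE for the 45 members, by group from top to bottom: G1 and G1/S regulators, DNA replication, G2/M and CDK inhibitors. The solid line marks 0 and the dashed line the median of all genes tested (-0.02); 20 of the 23 G2/M points lie right of 0, while the G1/S points divide 10 to 10.

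The G1/S genes divided evenly, 10 positive and 10 negative, with a median log2 fold change of 0.04. Under the other scalings 11 to 13 were positive. In 3 of the 20 the homozygous libraries lay above without overlap (Ccnd1, Ccne1 and Tyms), and in 2 they lay below (Ccnd3 and Mcm6). These are 15% and 10%, against 17.4% and 18.2% of all genes. At an unadjusted p under 0.05 edgeR gave 1 higher and 1 lower of the 20, smaller shares than the 9.04% and 6.75% of all genes. With homozygous replicate 2 left out fewer of the 20 reached that threshold, and the share of all genes in that fit is not given here.

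The D-type cyclins, which couple growth signals to G1 progression, differed in sign. Ccnd1 was at 21.7 and 22.9 CPM in homozygous and at 19.6, 18.4 and 15.8 CPM in heterozygous libraries (log2 fold change 0.31, SE 0.120; edgeR adjusted p = 0.272). Ccnd3 was at 77.2 and 67.9 CPM against 82.0, 81.9 and 102 CPM in heterozygous libraries (-0.29, SE 0.129; edgeR adjusted p = 0.343). Ccnd2 was at 278 and 303 CPM in homozygous and at 385, 344 and 273 CPM in heterozygous libraries (-0.20, SE 0.154), and heterozygous replicate 3 lay below both homozygous libraries. Among the 3 cyclins, scaled to exon length, Ccnd1 took 10.7% and 10.9% in homozygous libraries and 7.63%, 7.85% and 7.66% in heterozygous libraries. Ccnd2 took 68.8% and 71.8% against 75.2%, 73.4% and 66.0% in heterozygous libraries, and Ccnd3 20.4% and 17.3% against 17.2%, 18.7% and 26.4%. The Ccnd1 share of the D-type cyclins thus varied little within a genotype, while the other 2 shares overlapped between genotypes. Summed over the 9 G1 and G1/S regulators the level was 504 and 519 CPM in homozygous and 610, 568 and 533 CPM in heterozygous libraries, and Ccnd2 made up 51.1% to 63.1% of it. Without Ccnd2 the sums were 225.2 and 216 CPM in homozygous and 225.2, 224 and 261 CPM in heterozygous libraries, which overlap. Ccnd1 (GRCm38 chromosome 7, 144929931 to 144939925) lies over LTO1 on the other strand and shares 19.6% of its words with other genes, mostly LTO1. How the counting treated strand is not stated, so its value is uncertain.

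The levels of their kinase partners overlapped between genotypes. Cdk4 was at 38.5 and 39.9 CPM in homozygous and at 43.6, 40.0 and 39.5 CPM in heterozygous libraries (log2 fold change -0.07, SE 0.0910). Cdk6 was at 59.3 and 59.7 CPM against 54.3, 62.0 and 79.3 CPM in heterozygous libraries, where replicate 3 was the highest. Cdk2, which works later with E-type cyclins, was at 22.3 and 19.6 CPM against 19.7, 16.8 and 18.8 CPM in heterozygous libraries (0.19, SE 0.118). Ccne1, an E-type cyclin, was at 0.884 and 1.14 CPM in homozygous and at 0.738, 0.623 and 0.716 CPM in heterozygous libraries (0.55, SE 0.286; edgeR adjusted p = 0.414), from 25 and 37 counts against 24, 21 and 18. Its paralogue Ccne2 was at 2.40 and 2.03 CPM against 2.24, 1.66 and 2.78 CPM in heterozygous libraries. E2f1, the transcription factor at the head of the S-phase programme, was at 2.90 and 2.89 CPM against 3.04, 2.49 and 2.31 CPM in heterozygous libraries. Shared words make Cdk4 (14.5%, mostly Tspan31) and Ccne2 (11.4%, mostly Ints8) uncertain. Only Ccne1 of the last 5 genes had groups that did not overlap.

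Among the genes of DNA replication, Mcm6 stood apart from the rest of its own complex. The MCM2 to MCM7 proteins form the replicative helicase in equal numbers. Mcm6 (GRCm38 chromosome 1, 128331590 to 128359664) was at 38.5 and 46.4 CPM in homozygous and at 55.7, 72.6 and 56.5 CPM in heterozygous libraries, without overlap (log2 fold change -0.54, SE 0.151; edgeR adjusted p = 0.172, DESeq2 adjusted p = 0.0441). Over all alternatives its log2 fold change ran from -0.68 without homozygous replicate 3 to -0.39 without heterozygous replicate 2, and the adjusted p from 0.0144 to 0.543. The other 5 subunits summed to 48.4 and 49.8 CPM in homozygous and to 49.5, 47.2 and 43.4 CPM in heterozygous libraries. Per kilobase of exon, Mcm6 exceeded the median of the other 5 by 3.33 and 4.21 times in homozygous libraries and by 4.64, 6.21 and 5.29 times in heterozygous libraries. No other annotated gene overlaps Mcm6, and 0% of its words occur in transcripts of other genes.

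**Figure D4:**
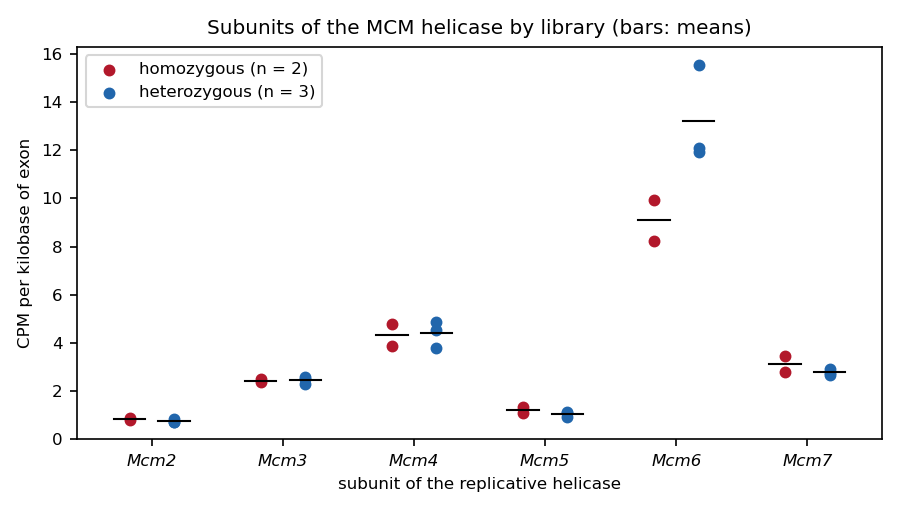
CPM per kilobase of exon of the 6 MCM helicase subunits in each homozygous (red, n = 2) and heterozygous (blue, n = 3) library, with bars at the group means. Mcm6 lies above the other subunits in every library, and its homozygous points (8.25 and 9.95) lie below all heterozygous ones (11.9, 15.6 and 12.1).

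Mcm5 was at 4.35 and 5.34 CPM in homozygous and at 3.69, 4.27 and 4.46 CPM in heterozygous libraries (log2 fold change 0.23, SE 0.185), and Mcm2, Mcm3, Mcm4 and Mcm7 overlapped likewise, Mcm7 with 7.44% shared words. Pcna, the sliding clamp of the replication fork, was at 15.0 and 18.6 CPM against 18.9, 18.3 and 17.7 CPM in heterozygous libraries, and 10.1% of its words are shared, mostly with a pseudogene. The enzymes that supply deoxynucleotides gave mixed values. Tyms, thymidylate synthase, was at 5.69 and 6.88 CPM in homozygous and at 5.35, 5.52 and 4.42 CPM in heterozygous libraries (0.30, SE 0.179; edgeR adjusted p = 0.473). Tk1, thymidine kinase, was at 1.59 and 1.23 CPM against 1.38, 0.801 and 0.835 CPM in heterozygous libraries (0.47, SE 0.332), and its groups overlapped. Of the ribonucleotide reductase subunits, Rrm1 was at 22.3 and 23.0 CPM against 23.6, 21.9 and 18.6 CPM in heterozygous libraries (0.09, SE 0.124), and Rrm2 at 1.87 and 2.52 CPM against 2.46, 2.34 and 2.15 CPM. Summed without Mcm6, the replication genes stood at 94.9 and 102 CPM in homozygous and at 101, 96.0 and 87.0 CPM in heterozygous libraries, which overlap.

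The inhibitors p21 and p27 differed in sign. Cdkn1a, the gene of p21, which p53 and many stress signals induce, was at 17.3 and 13.9 CPM in homozygous and at 10.4, 12.04 and 12.9 CPM in heterozygous libraries. The groups did not overlap (log2 fold change 0.41, SE 0.149; edgeR adjusted p = 0.259, DESeq2 adjusted p = 0.235), although homozygous replicate 3 lay close to heterozygous replicate 3. An opposite-strand gene overlaps Cdkn1a and shares 5.33% of its words, so its value is uncertain to that extent. Cdkn1b, the gene of p27, which keeps resting cells out of the cycle, was the second most abundant member per length. It was at 80.6 and 74.6 CPM in homozygous and at 94.1, 77.1 and 78.7 CPM in heterozygous libraries, with overlap (-0.10, SE 0.116; edgeR adjusted p = 0.724). Of 5 further genes with a Cdkn symbol that were tested, 4 were positive and 1 negative and all 5 overlapped. They included Cdkn3 (log2 fold change 0.65, SE 0.425) and Cdkn2c (0.27, SE 0.181). The Cdkn3 value rests on 11 and 24 counts in homozygous and 15, 10 and 8 in heterozygous libraries.

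Other genes of the same machinery gave 0 edgeR calls at an adjusted p under 0.05, as did all 18192 genes tested. Of 32 further genes of the spindle, kinetochore and mitotic checkpoint that were tested, 25 were positive and 7 negative, with a median log2 fold change of 0.18. In 11 of the 32 the homozygous libraries lay above and in 3 below without overlap, beside 17.4% and 18.2% of all genes. Ncapd2, a condensin subunit, was at 14.4 and 14.3 CPM in homozygous and at 11.8, 11.5 and 10.3 CPM in heterozygous libraries (0.36, SE 0.116; edgeR adjusted p = 0.217). Anln, the gene of anillin, an actin-binding scaffold of the cleavage furrow, had a negative value. It was at 59.5 and 57.4 CPM in homozygous and at 71.7, 91.5 and 102 CPM in heterozygous libraries (-0.60, SE 0.154; edgeR adjusted p = 0.150, DESeq2 adjusted p = 0.0178). Like Mcm6, Anln was higher in CPM than the other genes of its list in every library; Smc4, next by mean CPM, was at 26.1 and 29.4 CPM in homozygous and 32.9, 28.4 and 28.5 CPM in heterozygous libraries.

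Of 29 genes of origin licensing and the replication fork, 18 were positive and 11 negative (median 0.07), and 2 lay above and 3 below without overlap. Both counts are smaller shares of the 29 than the 17.4% and 18.2% of all genes. Gmnn, the gene of geminin, which blocks relicensing in S and G2 phase, was at 3.04 and 2.76 CPM in homozygous and at 1.66, 2.05 and 1.23 CPM in heterozygous libraries (0.81, SE 0.260; edgeR adjusted p = 0.213). Orc4, an origin recognition subunit, was at 47.1 and 46.9 CPM against 51.6, 53.3 and 55.9 CPM in heterozygous libraries (-0.19, SE 0.085). Of 18 genes of the retinoblastoma, E2F and DREAM group, 12 were positive and 6 negative (median 0.04). E2f8, an E2F of late S phase, had the lowest p there, at 0.636 and 0.584 CPM against 0.277, 0.326 and 0.0796 CPM in heterozygous libraries (1.35, SE 0.495, edgeR adjusted p = 0.259). That value rests on few reads, 18 and 19 counts in homozygous and 9, 11 and 2 in heterozygous libraries, and DESeq2 gave E2f8 no adjusted p. E2f2 gave 0.53 (SE 0.346). Subunits and regulators of the anaphase-promoting complex, the ubiquitin ligase that Cdc20 activates, were negative in 12 of 13 (median -0.11), as they were under each other scaling. In 4 of the 13 the homozygous libraries lay below without overlap and in 0 above, beside 18.2% and 17.4% of all genes. Anapc11 gave -0.27 (SE 0.113) and Cdc23, which overlaps Kif20a on the other strand, gave -0.17 (SE 0.090).

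Markers of several cell types differed between the same libraries. Macrophage markers were positive in 12 of 12, with sums of 486 and 635 CPM in homozygous and 304 to 421 CPM in heterozygous libraries. Adipocyte markers were positive in 12 of 12 (4702 and 5090 CPM, against 2521 to 3838.5 CPM in heterozygous libraries) and brown adipocyte markers in 8 of 8 (1129 and 1049.8 CPM, against 281 to 716 CPM in heterozygous libraries). Skeletal muscle markers were positive in 12 of 12 (965 and 2609 CPM, against 10.4 to 677 CPM in heterozygous libraries), while smooth muscle markers were negative in 10 of 11. Of 10 lymphocyte markers 4 were tested, and the summed 19.6 and 31.2 CPM in homozygous and 15.7 to 18.0 CPM in heterozygous libraries was mostly the pan-leukocyte gene Ptprc. Fibroblast markers were positive in 10 of 10 (4591 and 4753 CPM, against 3412 to 4509 CPM in heterozygous libraries) and Schwann cell markers in 7 of 8 (217 and 212 CPM, against 160 to 218 CPM). Endothelial markers were positive in 6 of 10, and erythroid markers negative in 5 of 5 (23.9 and 28.9 CPM, against 37.9 to 297 CPM in heterozygous libraries). No marker of any list was at 0 in all libraries. The part of these tissues in the values of the members was not tested. In heterozygous replicates 1, 2 and 3 the G2 and mitosis sums were 51.5, 43.4 and 46.3 CPM. In the same order the macrophage sums were 352, 304 and 421 CPM and the skeletal muscle sums 677, 309 and 10.4 CPM. Homozygous replicate 3 had the highest sum of all libraries in each of these lists, at 61.8, 635 and 2609 CPM. It was also highest in the adipocyte, fibroblast and lymphocyte sums. The brown adipocyte and endothelial sums were highest in homozygous replicate 2, at 1129 and 1214 CPM. The Schwann cell sum was highest in heterozygous replicate 1 (218 CPM), and the smooth muscle and erythroid sums in heterozygous replicate 2. How these sums relate to each other was not tested.

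**Figure D5:**
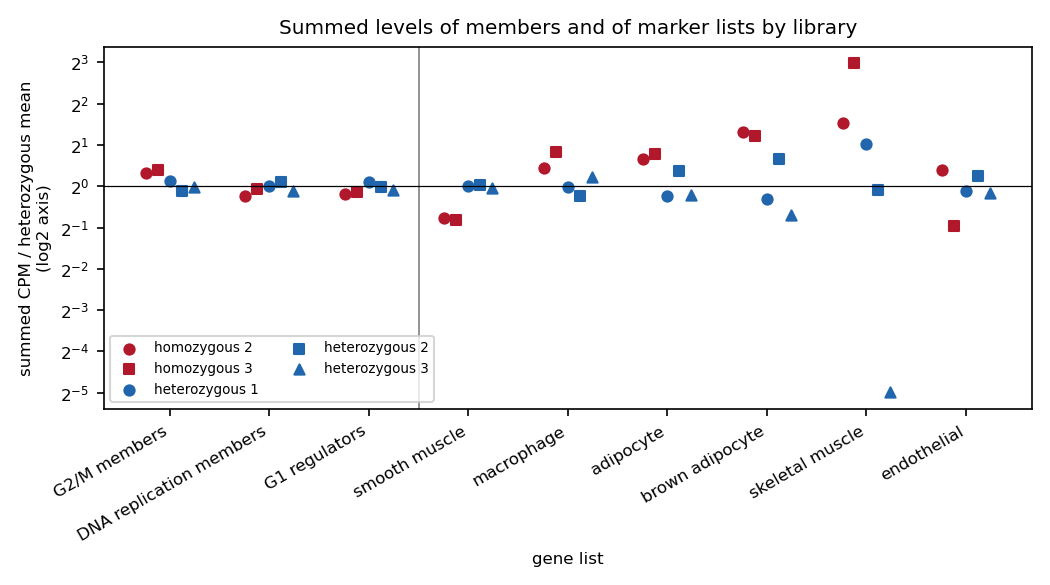
Summed CPM of 3 member groups (left of the grey line) and 6 marker lists (right) in each library, divided by the mean of the 3 heterozygous libraries, on a log2 axis; red symbols are homozygous and blue heterozygous libraries. The 2 homozygous libraries lie above the heterozygous ones for G2/M members, macrophage, adipocyte, brown adipocyte and skeletal muscle lists, and below for smooth muscle and for the G1 regulators, whose sums overlap once Ccnd2 is left out.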

How the data were processed

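Aortic RNA was sequenced from stranded poly(A) libraries, per the labels. Values in the deposited table are unnormalized integer counts for each gene. The tools listed in the submitters' processing notes are STAR 2.7.0f, Subread 1.6.4 with featureCounts, and fastp 0.20.0, and the build is GRCm38. Neither strand setting nor annotation release is given in the sources used here. Every gene was fitted: filterByExpr left 18192 genes, libraries were scaled by TMM, and group alone was tested with edgeR 4.0.16 (R 4.3.3), the quasi-likelihood F test, with Benjamini-Hochberg adjustment and a threshold of 0.05. The SE is the log2 fold change over the square root of F. DESeq2 1.42.0 and limma-voom 3.58.1 were alternatives, and the fit was tested on simulated data. The p-values measure the spread between these 5 aortae, and every pair of libraries differed by more than sampling noise.

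Exon lengths, overlaps and shared 100-base words came from GENCODE M21 (GRCm38), where all 45 symbols matched 1 gene. The members and lists were chosen with earlier results of these data known. Members shown in full were the 4 with the lowest p and the 2 most abundant of each group, both inhibitors and Mki67. Further members with values by library, among them Kif23, Cenpe, Cenpf, Cdk1, Foxm1 and the B-type cyclins, were added after their values were seen, as was Smc4. In other pathway lists the 2 with the lowest p were named. The rule also picked the 2 most abundant genes of each marker list, which are given here only within the sums.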

Additional observations from a re-analysis of the deposited data

How the results depend on the processing

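Of the 45 members, edgeR called 2 with no low-count filter (Mki67 higher, Mcm6 lower; adjusted p = 0.0219 and 0.0144) and DESeq2 called 2, and the other 12 alternatives called 0. Over all genes edgeR called 0 and limma-voom 1. The fit with no low-count filter called 1414 of 30400 genes (982 higher, 432 lower), beside 2 of 45 members. DESeq2 called 935 of 15741 genes (524 higher, 411 lower), beside 2 of the 40 members it gave an adjusted p. Whether members were called more often than other genes in these fits was not tested. Leaving out each library in turn gave 0 to 148 genes (148 without heterozygous replicate 2, 1 without homozygous replicate 3). Fits with a single homozygous library borrow their spread from the heterozygous ones.

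With each library left out, the median log2 fold change of all members ran from 0.12 without homozygous replicate 2 to 0.23 without heterozygous replicate 1. That of the G2 and mitosis genes ran from 0.18 without homozygous replicate 2 to 0.38 without homozygous replicate 3, and that of the G1/S genes from 0.066 to 0.11 with each library left out. Under no alternative did any of these 3 medians turn negative. The median of the 9 G1 regulators lay near 0 and changed sign, from -0.068 without heterozygous replicate 2 to 0.12 without homozygous replicate 3. The sign of 13 of the 45 members turned under at least 1 of the 14 alternatives, in 4 of them (Ccne2, Tpx2, Mcm3 and Mcm4) under another scaling, while 16 of the 23 G2 and mitosis genes stayed positive throughout.

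With the replicate block edgeR called 5 genes and 0 members, and the G1/S median was 0.099. Heterozygous and homozygous libraries share only the numbers 2 and 3, and deviations of same-numbered libraries correlated at -0.027 and -0.24. Deviations of the 2 homozygous libraries mirror each other (correlation -1), so these values cannot show whether libraries were paired. The labels give no batch, and no pairing was assumed. Counts per library of 6 to 37 in the scarcest mitotic genes limit what differences could be seen there.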

Other observations

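Genes of the p53 response had both signs. Of 14 tested, which are Trp53 itself (log2 fold change -0.11) and 13 genes known as its targets, 9 were positive and 5 negative, with a median log2 fold change of 0.07. Among all genes tested 47.2% were positive. At an unadjusted p under 0.05 edgeR gave 2 of the 14 higher and 1 lower, beside 9.04% and 6.75% of all genes. In 3 the homozygous libraries lay above and in 3 below without overlap, beside 17.4% and 18.2% of all genes. Btg2, an antiproliferative gene, was at 108 and 141 CPM in homozygous and at 53.9, 66.0 and 102 CPM in heterozygous libraries (log2 fold change 0.75, SE 0.261; edgeR adjusted p = 0.239). Eda2r, a death receptor, was at 7.78 and 6.94 CPM in homozygous and at 6.09, 3.62 and 4.34 CPM in heterozygous libraries (0.65, SE 0.236; edgeR adjusted p = 0.255). Trp53inp1, named after its values were seen, was the 1 gene of the list with an unadjusted p under 0.05 in the other direction, at 129 and 120 CPM in homozygous and at 183, 142 and 280 CPM in heterozygous libraries. Without homozygous replicate 3, 7 of the 14 were positive, and fewer reached an unadjusted edgeR p under 0.05. The share of all genes in that fit is not given here.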
